A study of Mus musculus with 14 samples.

Results

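Endothelial genes are genes whose transcripts mark the cells that line blood and lymphatic vessels. A fixed list of 36 blood and lymphatic endothelial genes was followed across all 14 arrays of a mouse osteosarcoma series, each gene by its brightest probe set, the one with the highest mean signal over the 14 arrays. All 36 genes had a probe set, of 18193 genes with a probe set in all, and 35 of the 36 reached a signal of 200 on at least 1 array and were tested among 11815 genes. The arrays held RNA of 12 osteosarcomas, tumours whose cells make bone matrix, and of 1 tumour labelled rhabdomyosarcoma, the sarcoma with features of skeletal muscle, all of which arose in p53+/- mice, which lack 1 copy of the p53 tumour suppressor gene. The control was 1 array of the untreated, non-tumorigenic mouse osteoblast line mc3T3, grown as a culture in alpha-MEM with serum. The labels give no age, strain or site of the tumours, and are silent on whether each of the 12 osteosarcomas was taken from another animal, so p-values measure the spread between these samples, which may be technical.

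Endothelial cells are held together by junction proteins and carry receptor tyrosine kinases for the vascular endothelial growth factors (VEGF) and the angiopoietins. VEGF receptors drive sprouting and survival, while the angiopoietin receptor system stabilises or loosens vessels. Transcription factors of the ETS and SOXF families set the endothelial programme, and Prox1 sets the lymphatic one. Bone is richly vascularised, and bone-forming cells are themselves a source of VEGF.

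Array medians lay between 67.1 and 111.1 units, and 33.8% to 40.4% of probe sets reached 200. The actin gene's 3' over 5' signal, which grows as RNA degrades, was 1.24 for the tumour labelled rhabdomyosarcoma, 1.42 to 2.13 for the osteosarcomas and 1.32 for mc3T3. Other cell types than endothelium moved with the same comparison. All 8 macrophage markers were higher in osteosarcoma than in mc3T3, with a summed signal of 138875 for the tumour labelled rhabdomyosarcoma, 51519 to 118289 over the osteosarcomas and 400 for mc3T3. All 4 general haematopoietic markers were higher, with a sum of 21460 for the tumour labelled rhabdomyosarcoma, 5968 to 19284 over the osteosarcomas and 225 for mc3T3. None of 3 platelet and megakaryocyte markers tested was called by limma (1 at an unadjusted p under 0.05), with a sum of 7519 for the tumour labelled rhabdomyosarcoma, 1382 to 8837 over the osteosarcomas and 2041 for mc3T3. None of 5 muscle markers was called by limma (1 at an unadjusted p under 0.05), but their sum reached 198436 in osteosarcoma 6 and 122970 in osteosarcoma 9, while it was 848 for the tumour labelled rhabdomyosarcoma, 257 for osteosarcoma 4 and 450 for mc3T3. Of 3 adipocyte markers, 2 were higher, with a sum of 2604 for the tumour labelled rhabdomyosarcoma, 6221 to 33831 over the osteosarcomas and 12 for mc3T3. Fabp4 of this list fell in the tumour labelled rhabdomyosarcoma relative to the osteosarcomas (-3.36 ± 0.61). Of 4 osteoblast markers, 2 were higher in osteosarcoma than in mc3T3, and all 4 were lower in the tumour labelled rhabdomyosarcoma than in the osteosarcomas, with a sum of 18986 for the tumour labelled rhabdomyosarcoma, 67227 to 117184 over the osteosarcomas and 65362 for mc3T3. Several listed genes are also transcribed in blood cells (Pecam1, Icam2, Fli1, Eng, Cd34) or in macrophages of tissue (Lyve1), and the part of these cells in the values below was not tested. In bulk RNA, fewer cells of a type and less RNA per cell cannot be told apart.

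Tumour tissue was first set against mc3T3, the series' control. Most of the endothelial genes were higher in the osteosarcomas. Of the 36 listed genes, 21 were called higher and none lower (limma, adjusted p under 0.05 over all genes and a difference of at least 1 on the log2(signal + 30) scale). At an unadjusted p under 0.05 stood 27 of the 35 tested members, all of them higher, against 27.6% of all genes. Over all genes tested, 8.59% were called higher and 4.58% lower. The count was 21 of 36 without the filter on low signal as well, and 27 of the 35 genes lay under 200 in mc3T3, so that they had passed the filter through the tumours. The median difference of the tested members was 2.68 on the log2 scale, and that of all genes -0.02. The mc3T3 signal lay below all 12 osteosarcomas for 29 of the 35 genes, a position found in 21.5% of all genes tested. Since mc3T3 was measured once, each such p sets 1 array against the spread of 12 tumours.

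**Figure D1:**
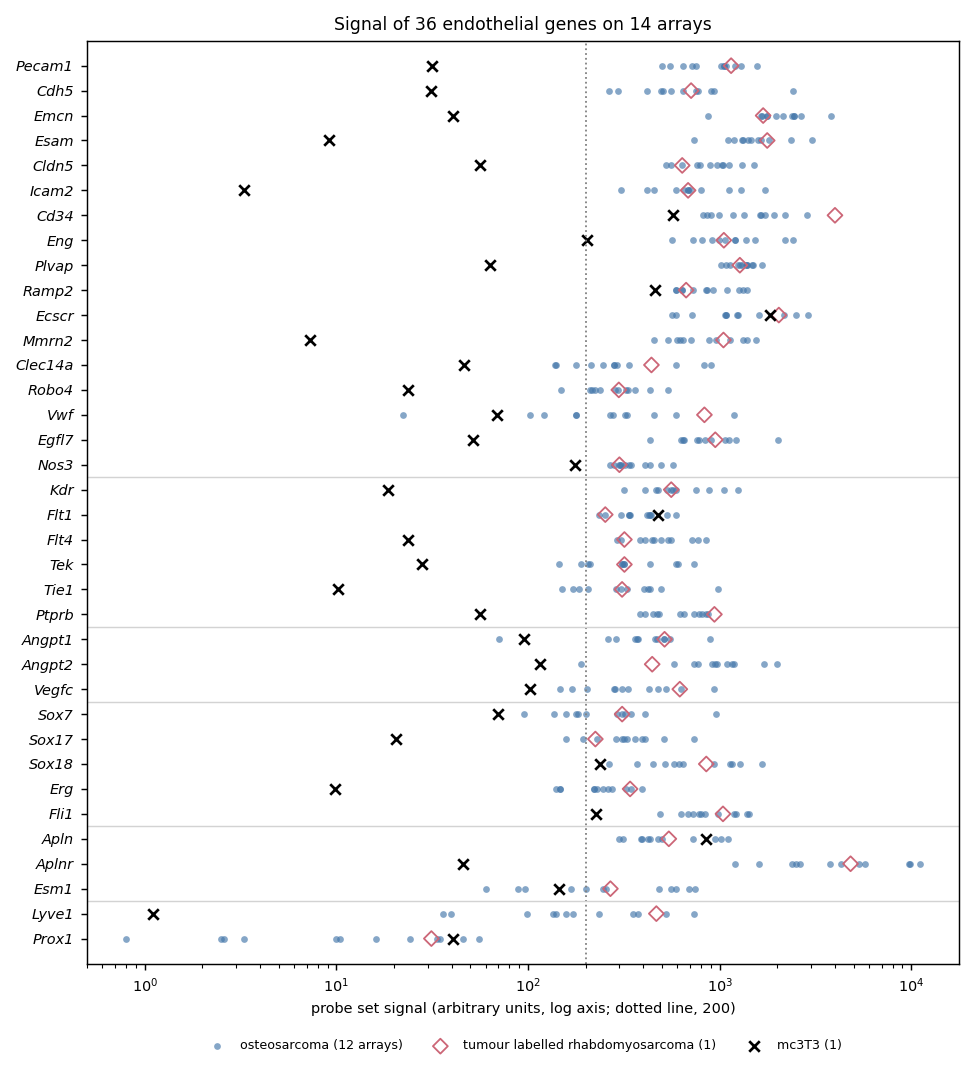
Signal of each of the 36 genes on each array (log axis, arbitrary units), in rows grouped by role, with 12 osteosarcomas as dots, the tumour labelled rhabdomyosarcoma as a diamond and mc3T3 as a cross. The mc3T3 cross lies left of all dots for most genes, and within them for Ecscr, Flt1, Apln, Esm1, Vwf, Angpt1 and Prox1. Prox1 stays below the dotted line at 200 on every array.

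Among the junction and surface proteins, 11 of 17 genes were higher in the osteosarcomas. Pecam1, the adhesion molecule CD31, had a lowest, median and highest signal of 498, 1035 and 1572 in the osteosarcomas, against 31.6 in mc3T3. No tumour came near the cultured line, and the difference was 3.92 ± 0.50 (SE; adjusted p = 0.000106). Cdh5, the cadherin of endothelial junctions, had 265, 598 and 2427 in the osteosarcomas, against 31.0 in mc3T3. The 2 groups differed by 3.43 ± 0.76 (adjusted p = 0.00786), with a single tumour, osteosarcoma 10, far above the other 11, whose highest value was 934. Esam, an adhesion molecule of endothelial tight junctions, had 731, 1430 and 3020 in the osteosarcomas, against 9.10 in mc3T3, a difference of 5.28 ± 0.51 (adjusted p = 9.48e-06). Emcn, the sialomucin endomucin of veins, capillaries and bone vessels, had 868, 2064 and 3828 in the osteosarcomas, against 40.6 in mc3T3, a difference of 4.86 ± 0.51. In both genes every tumour lay far above the cultured line.

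Plvap, the protein of the diaphragms that span endothelial fenestrae, was the most even of all members among the tumours. It had 1015, 1344 and 1666 in the osteosarcomas, against 63.3 in mc3T3, and its difference of 3.85 ± 0.28 had the lowest adjusted p of the members (7.35e-07). Mmrn2 (4.54 ± 0.55), a matrix protein that endothelial cells secrete, and Icam2 (4.47 ± 0.64), an adhesion molecule for leukocytes, differed by more, but spread more between tumours. Egfl7 (3.44 ± 0.54), a secreted vessel factor, Cldn5 (3.41 ± 0.46), the claudin of tight endothelial junctions, Robo4 (2.56 ± 0.47), an endothelial guidance receptor, and Eng (2.33 ± 0.58), a co-receptor of the TGF-beta family, completed the 11. Eng was already at 204 in mc3T3, the highest control signal among the 21 genes called other than that of Fli1.

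The other 6 genes of this group were not called. Cd34, a sialomucin of endothelial and blood progenitor cells, had 821, 1483 and 2844 in the osteosarcomas, against 568 in mc3T3 (1.26 ± 0.55; adjusted p = 0.154). Ramp2, the partner of the adrenomedullin receptor, had 590, 855 and 1385 in the osteosarcomas, against 459 in mc3T3 (0.88 ± 0.45). Nos3, the endothelial nitric oxide synthase, had 266, 329 and 568 in the osteosarcomas, against 176 in mc3T3 (0.90 ± 0.36). For all 3 genes the cultured line lay below every tumour, as in 21.5% of all genes tested, but no adjusted p was under 0.05. Clec14a, a C-type lectin of endothelium, differed by 2.15 ± 0.78 (adjusted p = 0.0868).

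Vwf, the clotting factor stored in endothelial granules and platelets, had the widest fold range of the members tested (53.3). Its signal was 178, 102, 455, 178, 588, 321, 22.2, 121, 330, 1183, 266 and 277 in osteosarcomas 1 to 12, against 68.7 in mc3T3 (1.48 ± 1.07; adjusted p = 0.402). Osteosarcoma 10 was the highest. Osteosarcoma 7 lay below the cultured line, but both of these signals were under 200 and may be background. Ecscr, an endothelial cell surface regulator of chemotaxis, was the only gene of its group with a negative difference, which was not called. Its signal was 565, 1156 and 2890 (lowest, median and highest) in the osteosarcomas, against 1824 in mc3T3, and 9 of 12 tumours lay below the cultured line (-0.56 ± 0.71; adjusted p = 0.654).

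Among the receptors, 5 of 6 genes were higher in the osteosarcomas. Kdr, the main signalling VEGF receptor, had 315, 564 and 1253 in the osteosarcomas, against 18.6 in mc3T3 (3.72 ± 0.54; adjusted p = 0.000326). Flt4, the receptor of Vegfc, had 292, 474 and 852 in the osteosarcomas, against 23.5 in mc3T3 (3.29 ± 0.47). Tie1 (3.12 ± 0.67) and Tek (2.62 ± 0.64), the orphan and the angiopoietin receptor of the Tie family, and Ptprb (2.88 ± 0.43), the phosphatase that acts on Tek, were higher too. The mc3T3 signal lay below all 12 osteosarcomas in each of these 5 genes, as it did in 21.5% of all genes tested. Flt1, the VEGF receptor that also acts as a decoy, was the exception. It had 234, 379 and 595 in the osteosarcomas, against 476 in mc3T3, and 10 of 12 tumours lay below the cultured line (-0.32 ± 0.40; adjusted p = 0.644). Its other 3 tested probe sets differed by 0.15, 0.16 and 0.57, and none was called.

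Of the ligands, Angpt2 passed. This angiopoietin, which loosens vessels where it blocks Tek, had 190, 958 and 1992 in the osteosarcomas, against 116 in mc3T3 (2.68 ± 0.76; adjusted p = 0.0315). Without osteosarcomas 6 and 9 its adjusted p was 0.0515. Angpt1, the ligand that activates Tek, had 70.5, 416 and 890 in the osteosarcomas, against 95.4 in mc3T3 (1.71 ± 0.73; adjusted p = 0.142). The lowest of these values, in osteosarcoma 5, was the only 1 below the cultured line, and without that tumour the difference was 1.89 with an adjusted p of 0.0163. Vegfc, the lymphatic growth factor, had 147, 321 and 932 in the osteosarcomas, against 103 in mc3T3 (1.5 ± 0.68; adjusted p = 0.170).

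Apelin and its receptor stood apart from each other. Aplnr, the apelin receptor of growing vessels, had the largest difference of all members, with 1207, 4042 and 11073 in the osteosarcomas, against 45.6 in mc3T3 (5.73 ± 0.96; adjusted p = 0.00107). Its ligand Apln, made by tip cells at the front of vessel sprouts, had 299, 456 and 1105 in the osteosarcomas, against 845 in mc3T3, and 9 of 12 tumours lay below the cultured line (-0.64 ± 0.60; adjusted p = 0.532). Esm1, a proteoglycan of tip cells, had 60.1, 251 and 741 in the osteosarcomas, against 145 in mc3T3, which lay inside the range of the tumours (0.77 ± 1.01).

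Of the 5 transcription factors, Sox17 (2.83 ± 0.54), Erg (2.73 ± 0.44) and Fli1 (1.84 ± 0.47) were higher. The other tested Sox17 probe set differed by 0.54 ± 0.51 and was not called. Erg and Fli1 are ETS factors and Sox17 is a SOXF factor of arterial endothelium. Erg had 141, 238 and 394 in the osteosarcomas, against 9.80 in mc3T3. Fli1 had 487, 820 and 1419 in the osteosarcomas, against 225 in mc3T3, and among the 6 osteosarcomas with an identifier that begins with m (the m tumours; the labels do not say what the letter means) its adjusted p was 0.0694. The other SOXF genes, Sox18 (1.45 ± 0.72) and Sox7 (1.5 ± 0.74), were not called. In both genes mc3T3 lay below all osteosarcomas, as it did in 21.5% of all genes tested.

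The promoters of 3 called genes, Tie1, Emcn and Robo4, and of Apln, which was not called, are shown because their transcripts did and did not separate the groups while all 4 windows hold letters of the core that ETS factors such as Erg and Fli1 bind. The windows run from 250 bases before to 50 bases after the start in RefSeq (GRCm38.p6), 5′ to 3′ on the gene's strand, and capitals mark AGGAAG or, on the other strand, CTTCCT.
Tie1 (chr4:118489800-118490099, minus strand): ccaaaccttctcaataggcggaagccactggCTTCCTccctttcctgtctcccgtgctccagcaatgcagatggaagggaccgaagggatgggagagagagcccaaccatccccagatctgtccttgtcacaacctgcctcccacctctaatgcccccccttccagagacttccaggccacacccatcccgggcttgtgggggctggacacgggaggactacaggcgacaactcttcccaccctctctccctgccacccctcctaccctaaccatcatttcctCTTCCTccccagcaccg
Emcn (chr3:137340828-137341127, plus strand): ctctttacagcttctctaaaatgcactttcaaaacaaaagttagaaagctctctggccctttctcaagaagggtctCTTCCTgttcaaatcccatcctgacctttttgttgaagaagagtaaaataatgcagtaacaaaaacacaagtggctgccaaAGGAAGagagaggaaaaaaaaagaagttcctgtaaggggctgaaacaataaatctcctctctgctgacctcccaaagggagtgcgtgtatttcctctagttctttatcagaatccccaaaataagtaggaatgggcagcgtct
Robo4 (chr9:37401722-37402021, plus strand): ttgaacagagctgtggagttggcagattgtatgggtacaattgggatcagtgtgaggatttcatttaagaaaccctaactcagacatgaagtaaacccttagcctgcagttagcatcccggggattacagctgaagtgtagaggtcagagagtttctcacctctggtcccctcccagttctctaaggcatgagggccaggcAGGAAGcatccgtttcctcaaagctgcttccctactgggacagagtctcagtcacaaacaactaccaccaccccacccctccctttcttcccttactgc
Apln (chrX:48034804-48035103, minus strand): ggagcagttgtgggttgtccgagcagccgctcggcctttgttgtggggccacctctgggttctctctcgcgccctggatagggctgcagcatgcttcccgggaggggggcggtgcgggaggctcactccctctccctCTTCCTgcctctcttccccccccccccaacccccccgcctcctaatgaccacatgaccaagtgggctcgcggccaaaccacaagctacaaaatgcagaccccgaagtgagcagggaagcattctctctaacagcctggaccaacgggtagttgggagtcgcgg
The promoter table matched 17 of the 36 genes with 22 windows, of which 10 held AGGAAG on either strand (45.5%), against 35.4% of all 32851 promoters in the table. Tie1 and Emcn had 2 matches each, and Robo4 and Apln had 1 each. Of the genes not shown, the called Eng, Egfl7 and Erg had a window with a match. The called Kdr, Tek, Flt4 and Cldn5 had none. Among genes not called, Cd34 and Flt1 had a match, and Vegfc, Clec14a and Esm1 had none. A match describes these letters and is no measured binding site.

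Flt4, given above with the receptors, is also a lymphatic marker and was called higher (3.29 ± 0.47). The other lymphatic genes were low or variable. Lyve1, the hyaluronan receptor of lymphatic endothelium and of some tissue macrophages, had 36, 165 and 733 in the osteosarcomas, against 1.10 in mc3T3 (2.80 ± 1.02; adjusted p = 0.0851). It passed without osteosarcoma 7 (2.95; adjusted p = 0.049). Prox1, the factor that sets lymphatic identity, had 31.3 in the tumour labelled rhabdomyosarcoma, 0.80 to 55.5 over the osteosarcomas and 40.7 in mc3T3. It stayed under 200 on all 14 arrays and was not tested. Pdpn, podoplanin, a lymphatic marker that other cells make too, had 2933 in the tumour labelled rhabdomyosarcoma, 60.0 to 4207 over the osteosarcomas and 3294 in mc3T3 and was not called.

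**Figure D2:**
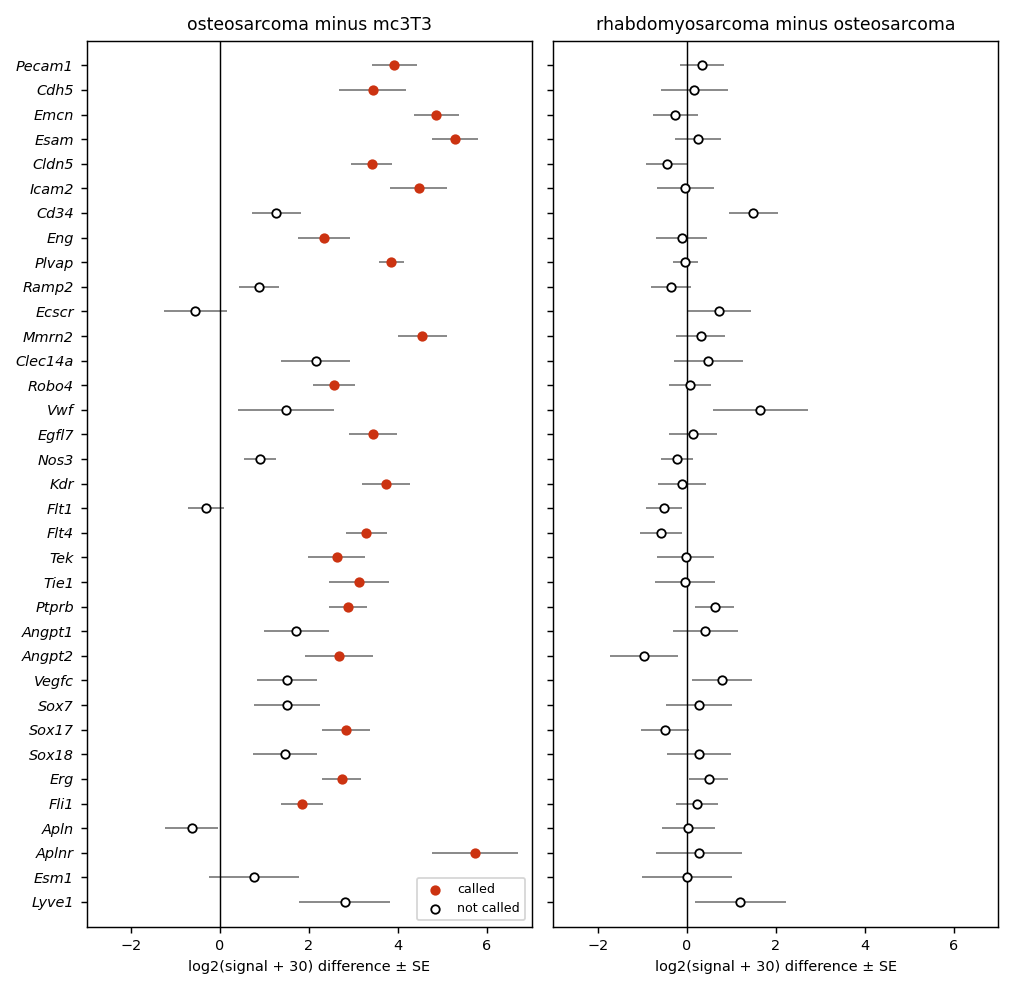
Difference of each tested gene on the log2(signal + 30) scale with its SE, for osteosarcoma minus mc3T3 (left) and the tumour labelled rhabdomyosarcoma minus osteosarcoma (right). Filled points were called: 21 of 35 on the left, all above 0, and none on the right.

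Genes of the pathway outside the list gave mixed results. Of 18 VEGF and angiopoietin pathway genes, 4 were higher and 4 lower in the osteosarcomas, with a median difference of -0.60, against -0.02 over all genes. Angptl4 (5.50 ± 1.34), an angiopoietin-like protein of hypoxia and lipid metabolism, Pgf (3.50 ± 0.47), placental growth factor, Nrp2 (2.39 ± 0.62), a VEGF co-receptor, and Epas1 (2.37 ± 0.66), the hypoxia-inducible factor of endothelium, were higher. Svep1 (-4.19 ± 0.86), Sema3c (-2.69 ± 0.69), Sema3a (-1.94 ± 0.60) and Vegfb (-1.74 ± 0.42) were lower. With the mean of a gene's probe sets, Nrp2 (adjusted p = 0.0560) and Epas1 (adjusted p = 0.133) were not called, and Sema3a, at an adjusted p of 0.0446, lost its call under 12 of 22 alternatives (range 0.0120 to 0.0706). Vegfa itself, the principal vascular growth factor, had 592, 1076 and 3136 in the osteosarcomas, against 1237 in mc3T3 (-0.06 ± 0.58; adjusted p = 0.963).

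Of 21 tested genes of Notch, ephrin and BMP signalling in vessels, 4 were higher and 1 lower, with a median difference of 0.57. Hey1 (3.92 ± 0.61) and Heyl (2.88 ± 0.63) are Notch targets, Notch4 (3.76 ± 0.52) is the endothelial Notch receptor and Dll4 (2.88 ± 0.46) is the ligand of tip and arterial cells. Of the other 5 Notch genes in the list, Hey2 (1.30 ± 0.74), Dll1 (0.57 ± 0.45), Jag1 (0.36 ± 0.51), Jag2 (0.00 ± 0.51) and Notch1 (-1.0 ± 0.41) were not called. Nr2f2 (-2.03 ± 0.35), the factor that sets venous identity, was lower.

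Of 37 tested further endothelial genes, 13 were higher and 3 lower, with a median difference of 0.77. Cd93 (5.78 ± 0.45), a lectin-like receptor, Gpihbp1 (4.62 ± 0.40), which holds lipoprotein lipase on capillaries, Mcam (4.07 ± 0.58), the adhesion molecule CD146, and Cd36 (3.89 ± 0.89), a fatty acid receptor that macrophages and adipocytes share, led them. Cd36 lost its call with the mean of its probe sets (adjusted p = 0.0721). Vcam1 (-2.28 ± 0.55), Thbd (-1.80 ± 0.43) and Sparcl1 (-1.59 ± 0.50), which other cells also make, were lower. Sparcl1, at an adjusted p of 0.0472, lost its call under 12 of 22 alternatives (range 0.0255 to 0.101). Of 7 tested mural cell genes, which mark the pericytes and smooth muscle around vessels, Abcc9 (6.75 ± 0.76), Rgs5 (6.24 ± 1.31) and Kcnj8 (3.92 ± 0.63) were higher and none was lower, with a median difference of 1.37. The summed mural signal was nonetheless 15198 to 51993 in the osteosarcomas, against 74362 in mc3T3, where Acta2 had 61899.

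The tumour labelled rhabdomyosarcoma was then set against the osteosarcomas. Its endothelial genes lay within the values of the osteosarcomas for 33 of 35 genes, and none was called by limma. The other 2 lay above all osteosarcomas, against 16.6% of all genes tested. No member lay below all of them, against 14.1% of all genes tested. Over all genes, 1.19% were called higher and 1.76% lower. At an unadjusted p under 0.05 stood 1 of the 35 members, against 16.0% of all genes, and the lowest adjusted p of the members was 0.188. The median difference was 0.14 for the members and 0.05 for all genes. With a lone array this test assumes that it varies as an osteosarcoma does.

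Of the genes inside the range of the osteosarcomas, Pecam1 had 1148 in it, against 498 to 1572 in the osteosarcomas (0.34 ± 0.50). Plvap had 1275, against 1015 to 1666 in the osteosarcomas (-0.04 ± 0.28), and Kdr had 559, against 315 to 1253 in the osteosarcomas (-0.12 ± 0.54). For Plvap, which spreads least between tumours, this SE gives the tightest bound of the members. A p that misses the threshold does not show that the tumours are alike.

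Cd34 and Ptprb were the 2 members above all 12 osteosarcomas, a position found in 16.6% of all genes tested. Cd34 had 3999 in the tumour labelled rhabdomyosarcoma, against 821 to 2844 in the osteosarcomas (1.49 ± 0.55; adjusted p = 0.188). Ptprb had 939, against 382 to 868 in the osteosarcomas (0.62 ± 0.43; adjusted p = 0.528). Vwf, with 833 against 22.2 to 1183 in the osteosarcomas, showed the largest difference (1.65 ± 1.07; adjusted p = 0.487). Lyve1 had 467, against 36 to 733 in the osteosarcomas (1.20 ± 1.02). Angpt2 was at the low end, with 445 in the tumour labelled rhabdomyosarcoma against 190 to 1992 in the osteosarcomas (-0.97 ± 0.76; adjusted p = 0.575).

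Outside the list, Nrp2 fell by 3.12 ± 0.62 in the tumour labelled rhabdomyosarcoma (adjusted p = 0.0134), with 1169 against 3581 to 19173 in the osteosarcomas. It was the only gene called of 18 in the VEGF and angiopoietin list. In the Notch, ephrin and BMP list Nr2f2 rose by 2.79 ± 0.35, with 1284 against 118 to 265 in the osteosarcomas. Smad6 (-3.18 ± 0.60) and Id3 (-1.93 ± 0.27), targets of BMP signalling, and the netrin receptor Unc5b (-2.49 ± 0.41) fell. Id1 (0.20 ± 0.55) and Smad7 (-0.70 ± 0.42), of the same gene families and list, were not called. Smad6 was not called with the m tumours alone (adjusted p = 0.0603). None of the 37 further endothelial genes was called by limma (5 at an unadjusted p under 0.05), with Vcam1 nearest (2.16 ± 0.55; adjusted p = 0.0511, and called under 8 of 22 alternatives). None of the 7 mural genes was called by limma either (2 at an unadjusted p under 0.05).

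Both lone arrays can be set side by side without a test. Esam had 1771 in the tumour labelled rhabdomyosarcoma, against 9.10 in mc3T3. Aplnr had 4823 in that tumour and 45.6 in mc3T3. Of the 3 genes with a negative difference between osteosarcoma and mc3T3, Ecscr had 2037 in the tumour labelled rhabdomyosarcoma, against 1824 in mc3T3. Flt1 had 253 in that tumour and 476 in mc3T3, and Apln had 543 in that tumour and 845 in mc3T3, so that in Flt1 and Apln the cultured line was again the higher.

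The osteosarcomas differed among themselves in endothelial signal. The members' SD on the log2 scale had a median of 0.57, against 0.43 over all genes tested, and 31 of 35 members lay above that median of all genes. Plvap (0.20) and Nos3 (0.32) were the most even, while Vwf (1.16), Lyve1 (1.10), Esm1 (1.09) and Aplnr (1.04) were the most variable.

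Osteosarcoma 10 was the tumour with the most endothelial signal. It had the highest value of the 12 for 17 of 35 members, against 7.52% of all genes. It lay at least 1 above the median osteosarcoma on the log2 scale for 14 members, against 2.76% of all genes. These were Vwf (2.01), Cdh5 (1.97), Sox7 (1.85), Clec14a (1.59), Tie1 (1.54), Sox18 (1.37), Esm1 (1.36), Icam2 (1.30), Aplnr (1.29), Egfl7 (1.28), Tek (1.16), Sox17 (1.12), Kdr (1.11) and Esam (1.06). Plvap (0.14), Eng (0.08) and Fli1 (0.03) were near the median in it, and Lyve1 was the lowest of all tumours (-1.56). The summed signal of the mural genes was also highest in osteosarcoma 10, at 51993, while those of macrophage (66988, rank 9 of 12) and platelet genes (2389, rank 11) were low. Its mural sum came mostly from Rgs5 (17212), Acta2 (16656) and Pdgfrb (10893). Its Cspg4 (654) and Notch3 (1362) lay below the osteosarcoma medians of 778 and 1391. Its platelet sum came mostly from Pf4 (1947), while its Itga2b (339) lay above the median of 264.5. The part of mural cells, macrophages and platelets in the endothelial values was not tested.

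Osteosarcomas 8 and 6 came next. The median deviation of the members from the median osteosarcoma was 0.79 in osteosarcoma 10, 0.38 in osteosarcoma 8 and 0.36 in osteosarcoma 6, against medians of all genes of 0.03, 0.01 and 0.00. Osteosarcoma 8 had the highest value for 7 members, among them Emcn (3828), Mmrn2 (1550) and Aplnr (11073). Osteosarcoma 6 was the tumour with the highest muscle signal, and the part of muscle tissue in its endothelial values was not tested. Osteosarcoma 5 was at the other end, with a median deviation of -0.56 and the lowest value for 12 members, against 8.01% of all genes. It nonetheless had the highest Apln (1105) and Esm1 (741) of all tumours, and its Vwf (588) was second to that of osteosarcoma 10.

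**Figure D3:**
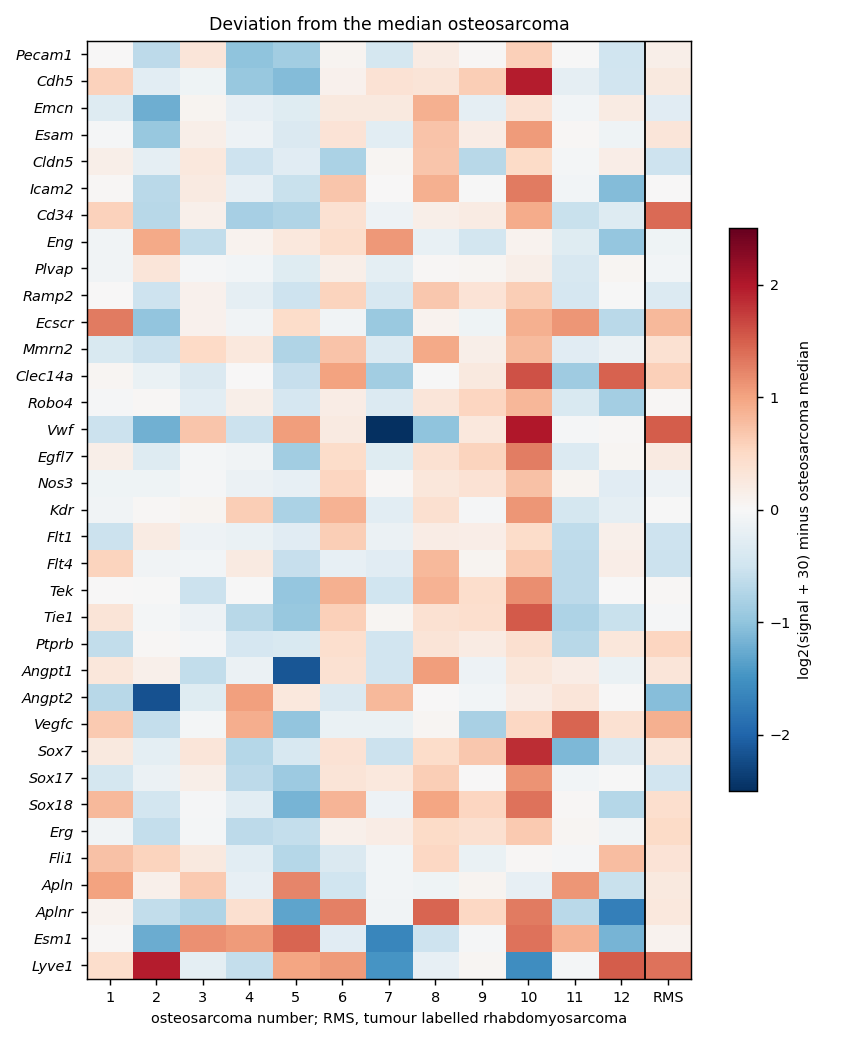
Deviation of each tested gene from its median over the 12 osteosarcomas (log2(signal + 30), colours capped at 2.5 either way), in columns for osteosarcomas 1 to 12 and the tumour labelled rhabdomyosarcoma. Osteosarcoma 10 is above the median for 33 of 35 genes and osteosarcoma 5 for 7 of 35.

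Many of the genes ran together across the 12 osteosarcomas. Over the 595 pairs of the 35 members the median Pearson r was 0.37, and 38.7% of pairs were above 0.5. Over all pairs of 9791 genes with a mean osteosarcoma signal of at least 200, the median was 0.01 and 7.53% were above 0.5. These values describe 12 tumours, and the genes of each pair were measured on the same arrays of the same tissue. The part of cell content in r was not tested. Egfl7 (0.73), Sox18 (0.71), Tek (0.69), Nos3 (0.68) and Ramp2 (0.67) had the highest median r with the other 34 members. Angpt2 (-0.04), Eng (-0.17), Apln (-0.30) and Lyve1 (-0.33) had the lowest, so that Eng and Lyve1 did not follow the other vessel genes between tumours.

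**Figure D4:**
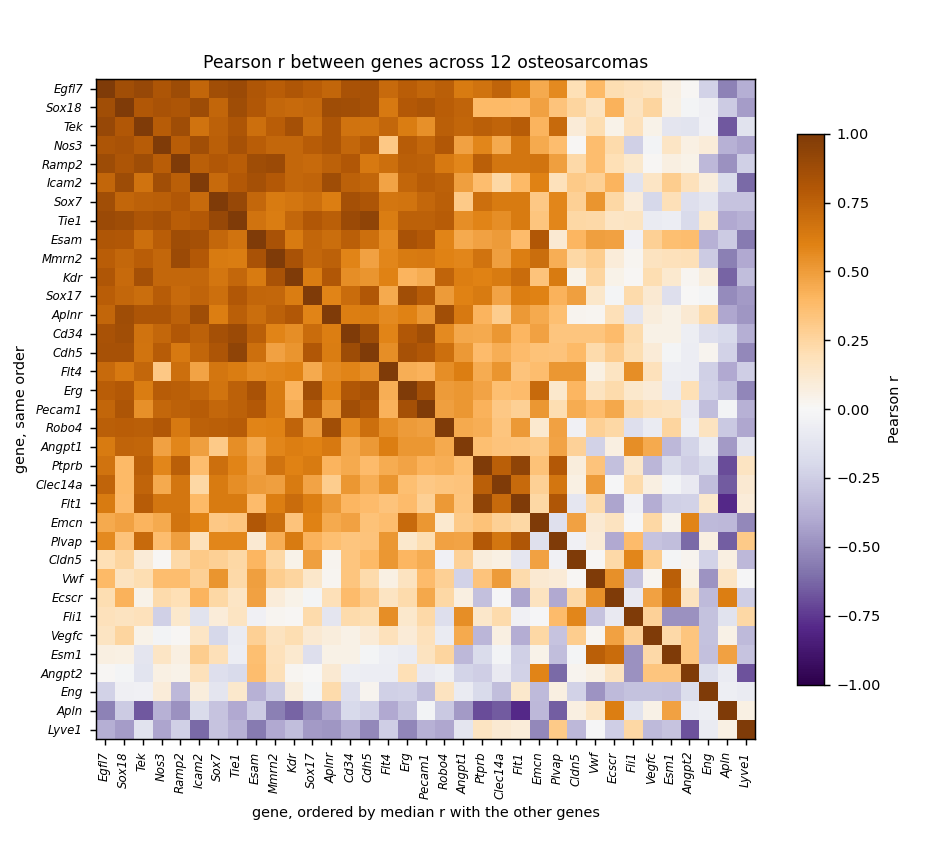
Pearson r between each pair of the 35 tested genes across the 12 osteosarcomas, with genes ordered by their median r with the others, from Egfl7 (0.73) to Lyve1 (-0.33). The SOXF genes and many of the junction and receptor genes stand toward the upper left. Flt1 (0.38), Emcn (0.35), Plvap (0.35), Cldn5 (0.23), Vwf (0.22) and Ecscr (0.19) stand lower. The last rows hold Vegfc, Esm1, Angpt2, Eng, Apln and Lyve1.

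Of 16 relations between named genes, 4 passed a permutation test over the 12 osteosarcomas after Benjamini-Hochberg adjustment over the 16. Pecam1 rose with Cd34 (r = 0.86, adjusted p = 0.00832; rho = 0.85, adjusted p = 0.0195) and with Cdh5 (r = 0.80, adjusted p = 0.0101; rho = 0.75, adjusted p = 0.0399). Without the 2 tumours farthest from the median Pecam1, osteosarcomas 4 and 5, r was 0.78 and 0.66. Without osteosarcoma 10 it was 0.82 and 0.75, and within the 6 m tumours 0.97 and 0.94. The tumours with other identifier letters were too few for a value of their own. Angpt1 rose with its receptor gene Tek (r = 0.73, adjusted p = 0.0157; rho = 0.76, adjusted p = 0.0399). Without osteosarcomas 5 and 8, its farthest values, r was 0.60, and without osteosarcoma 5 alone its adjusted p was 0.0965 and without osteosarcoma 8 alone 0.0764. Within the 6 m tumours r was 0.92.

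Kdr rose with Flt1 (r = 0.70, adjusted p = 0.0470; rho = 0.71, adjusted p = 0.0471), but r was 0.41 without osteosarcomas 10 and 6, the farthest from the median Kdr. Its adjusted p was also 0.05 or more when any 1 of osteosarcomas 2, 3, 5, 6, 7, 8, 9, 10 and 11 was left out, with r between 0.61 and 0.72. Within the m tumours r was 0.93. The second brightest Flt1 probe set had an r of 0.00 with the brightest over the 12 tumours, and its relation to Kdr was not tested.

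**Figure D5:**
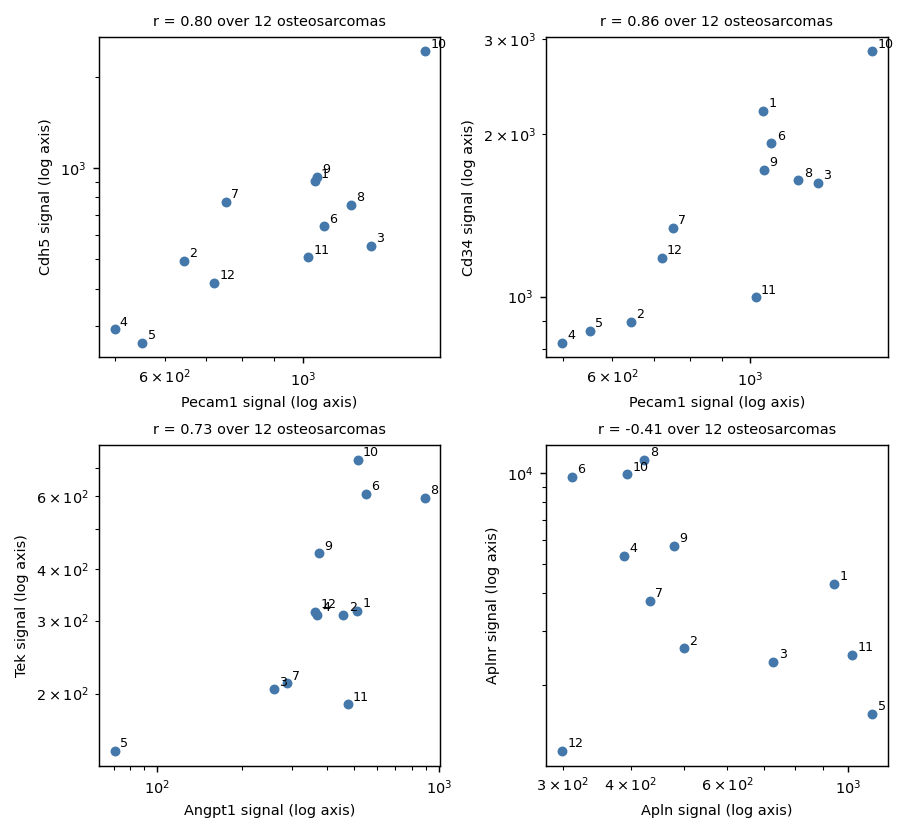
Signals of 4 gene pairs in the 12 osteosarcomas (log axes), each point labelled with its tumour number: Pecam1 with Cdh5 (r = 0.80), Pecam1 with Cd34 (r = 0.86), Angpt1 with Tek (r = 0.73) and Apln with Aplnr (r = -0.41). Osteosarcoma 10 is at the upper right of the top panels. Osteosarcoma 12, with the lowest Apln and Aplnr, is at the lower left of their panel, and that relation did not pass.

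The other 12 relations did not pass. Vegfa with the tip cell gene Esm1 had r = 0.57 (adjusted p = 0.126) and passed after centring within the first letter of the identifiers (r = 0.69, adjusted p = 0.0335). Lyve1 with the macrophage receptor gene Mrc1 had r = 0.65 (adjusted p = 0.0742), and passed after the same centring (0.73, adjusted p = 0.0246) and without osteosarcoma 6 (0.74, adjusted p = 0.0384). Lyve1 with Prox1 had r = -0.10, with Prox1 under 200 on every array. Apln with Aplnr had r = -0.41 (adjusted p = 0.298), and without osteosarcoma 12 it was -0.77 (adjusted p = 0.0303). Angpt2 with Tek had r = -0.13 and Vegfa with Angpt2 had 0.11. Vegfc with Flt4 had r = 0.18 (adjusted p = 0.704), but 0.66 without osteosarcoma 11 (adjusted p = 0.0756), 0.52 without osteosarcomas 11 and 5, and 0.72 within the 6 m tumours. Pecam1 with Emcn had r = 0.52 and with Kdr 0.44, and Pecam1 with Kdr passed without osteosarcoma 4 (0.73, adjusted p = 0.0333). Pecam1 had r = -0.38 with the macrophage gene Csf1r, 0.45 with the mural gene Pdgfrb and -0.18 with the actin 3' to 5' ratio, none of which passed.

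The genes outside the list whose values ran most like the vessel genes were named by their mean r with Pecam1, Cdh5, Emcn, Esam and Tie1 over the 12 osteosarcomas, among genes with a mean osteosarcoma signal of at least 200. Rasip1 (mean r = 0.78), a regulator of vessel lumen formation, came first, with 103 to 426 in the osteosarcomas, against 5.50 in mc3T3. Pcdh12 (0.76), an endothelial protocadherin, came next, with 81.2 to 722 in the osteosarcomas, against 11.8 in mc3T3. Ireb2 (0.75), an iron-responsive RNA-binding protein of all cells, followed, with 807 to 1525 in the osteosarcomas, against 1117 in mc3T3. Adcy4, Bcl6b, Jcad and Col4a2 had 0.74 each, Tspan13 had 0.73, and Kank3 and Rhoj had 0.72 each. Of these 10 genes, Rasip1 (2.81 ± 0.51), Pcdh12 (2.88 ± 0.66), Tspan13 (3.50 ± 0.74) and Adcy4 (1.88 ± 0.56; adjusted p = 0.0382) were higher in osteosarcoma than in mc3T3. Adcy4 lost its call under 7 of 22 alternatives (range of adjusted p 0.0223 to 0.0869). Jcad (-1.30 ± 0.51), Rhoj (-1.29 ± 0.53) and Col4a2 (-0.43 ± 0.46), a basement membrane collagen, had higher signals in mc3T3 than the mean osteosarcoma and were not called. Kank3 (1.39 ± 0.45; adjusted p = 0.0521) and Bcl6b (1.93 ± 0.66; adjusted p = 0.0698) were not called either. Of 22 alternatives, Kank3 was called under 5, Bcl6b under 3 and Jcad, as lower, under 1 (without osteosarcoma 10; adjusted p = 0.0436).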

How the data were processed

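The values are the deposited array signal (intensity) of 45101 probe sets on 14 arrays, on a linear scale; GCOS is named in the submitters' processing notes, and its version, the background step and the probe summary stay unstated: not given in the sources used here. The 2% trimmed mean of each deposited array is 500.0. Detection calls were not used, so low signals may be background. Precision is limited by the number of arrays. Groups come from titles or source names, and sample numbers follow accession order as names alone.

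Arrays were rescaled to a trimmed mean of 500 and analysed as log2(signal + 30), which understates the change of low genes. Of the probe sets, 34945 had 1 symbol from the platform annotation (34741 updated by Entrez identifier, GRCm38.p6 table), 932 had several genes and 9160 were unnamed here. Probe sets reaching 200 on 1 or more arrays were kept and a gene was its brightest probe set (11815 genes). A model of 3 groups was fitted to all genes in limma 3.58.1 (R 4.3.3; lmFit and eBayes, two-sided, Benjamini-Hochberg over all genes), with the spread from the 12 osteosarcomas, and was tested on simulated data. Genes were called at an adjusted p under 0.05 with a difference of 1 or more. Relations used 100000 permutations, two-sided.

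The 36 genes, the further lists and the relations were chosen with earlier results of these data known. Named outside the list are, per pathway or mural list, the called genes up to the 4 highest and 4 lowest, the genes of the relations and the 10 genes most like the vessel genes; the other cell type lists are given as counts and sums. Of the genes in the further lists, 8 were not matched to a probe set and are not analysed here. Alternatives changed the pseudocount, scaling, filter, probe set rule, variance prior and the tumours included.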

Additional observations from a re-analysis of the deposited data

How the results depend on the processing

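The count of 21 endothelial genes higher in osteosarcoma than in mc3T3 was 20 to 22 over all 22 alternatives (pseudocounts of 10 and 100, quantile and median scaling, no filter or a mean of 200, the mean of a gene's probe sets, a trended robust prior, each tumour left out, osteosarcomas 6 and 9 left out, m tumours only). None was lower under any of them. Beside the brightest, 20 further probe sets of 13 members were tested, of which 10 were called higher and none lower. Between the tumour labelled rhabdomyosarcoma and the osteosarcomas the count was 0 under all 22. Of 770 recomputed values of single members against mc3T3, 2 lost and 3 gained the call, those of Angpt2, Fli1, Angpt1 and Lyve1 given above, and Lyve1 also with a pseudocount of 10 (adjusted p = 0.0309). The count of relations that passed was 4, and between 2 and 5 when a tumour was left out. It was 2 without osteosarcomas 6 and 9, where Kdr with Flt1 (adjusted p = 0.149) and Angpt1 with Tek (0.0552) did not pass. Kdr with Flt1 was lost under 11 of 17 alternatives; the cause was not tested. No paired analysis was possible because the labels pair no sample with another. With 1 array each of mc3T3 and of the tumour labelled rhabdomyosarcoma, their own spread is unknown.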
